A study of Drosophila melanogaster with 3 samples.

Results

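The genes for the proteins of the large cytoplasmic ribosomal subunit of Drosophila melanogaster were taken from the Ensembl annotation as all protein-coding genes whose name starts with RpL and a digit, or with RpLP. The rule finds 54 of 13968 protein-coding genes, and it uses names only. The data are chromatin immunoprecipitation followed by sequencing (ChIP-seq) of Bdp1 carrying green fluorescent protein (GFP) at its C terminus. They come from 3 biological replicates of embryos aged 0 to 24 h, of both sexes, from a single transgenic line, CG9305-GFP, precipitated with an antibody against GFP. CG9305 is the identifier of Bdp1, and all replicates belong to 1 group, so no condition is compared. Whole embryos mix all cell types, so a peak cannot be assigned to a cell type, and the labels do not say whether untagged Bdp1 was also present.

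The ribosome's large subunit joins amino acids into protein and consists of several rRNAs and a shell of proteins, most of which are named RpL in flies. In Drosophila many of these genes are Minute loci, where loss of a single copy slows development and shortens bristles. The mRNAs are made by RNA polymerase II (Pol II), and many of their start sites lie in a pyrimidine-rich initiator called TCT. Bdp1, in contrast, is a subunit of TFIIIB, the initiation factor of RNA polymerase III (Pol III), which makes tRNAs and the 5S rRNA that is itself built into the large subunit.

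The authors' optimal list held 3206 peaks on the dm6 build, and 236 of them lay at Pol III genes. For every replicate there was in addition a relaxed list of 30000 peaks, which includes background. Read totals are not part of these lists, so the depth behind a peak is unknown. A gene was counted as carrying a peak when the peak overlapped by at least 1 bp the stretch of 100 bp on either side of any of its transcript 5′ ends. Signal is given below as relative signal. It is the deposited signal of the strongest relaxed peak at the gene, divided by the median signal found in the same replicate at the optimal peaks, so that 1 is a typical optimal peak. The lowest relative signal in the 3 relaxed lists was 0.202, 0.216 and 0.210 in replicates 1, 2 and 3, and a gene with no relaxed peak therefore lies under these values or was not called.

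Bdp1-GFP was found at most large-subunit genes. An optimal peak lay at 37 of the 54 members, or 68.5% (95% exact Clopper-Pearson interval 54.4 to 80.5%, covering counting error over genes only), beside a background of 13.7% among all protein-coding genes. Among the 3206 strongest relaxed peaks of each replicate, as many as there are optimal peaks, the share of members was 63.0% in replicate 1, 68.5% in replicate 2 and 66.7% in replicate 3. This made 66.0% ± 2.83 (SD, n = 3), beside 13.3% ± 1.80 for all protein-coding genes. In all 3 replicates the lowest share of members stood above the highest share of protein-coding genes, which was 15.1%. A strongest peak in every replicate was found at 32 members (59.3%), against a background of 7.08%. A relaxed peak in every replicate was found at 40 members (74.1%), against 21.3% of all protein-coding genes. No relaxed peak in any replicate was found at 6 members (11.1%), against 43.4%.

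In the share with an optimal peak, 3 other gene lists of the protein synthesis machinery lay between the members and the background. For the genes of the small cytoplasmic subunit (RpS and sta) the share with an optimal peak was 48.7% (19 of 39, interval 32.4 to 65.2%), and its interval overlaps that of the large subunit. The replicates of that list ranged from 30.8 to 56.4%, below the lowest replicate of the large subunit. For the large subunit of the mitochondrial ribosome (mRpL), whose proteins are made in the cytoplasm and imported, it was 27.7% (13 of 47, interval 15.6 to 42.6%). Among 12 genes for nucleolar and subunit-assembly proteins 7 had a peak (58.3%, interval 27.7 to 84.8%). In the relaxed lists that list was above the members, with a peak in every replicate at 91.7% of its genes against 74.1%. Among the strongest peaks both stood at 66.7% in replicate 3. In replicates 1 and 2 the assembly list was below the members, at 41.7% in each against 63.0 and 68.5%. A strongest peak in every replicate was found at 25% of its genes, against 59.3% of members. The strongest gene of each list had a higher mean than any member, by less than the SD of the strongest member (RpL7, 4.05 ± 1.5) for eIF6 and RpS27. They were mRpL41 (6.11 ± 0.969), eIF6 (4.39 ± 0.815), whose product keeps immature large subunits from joining small ones, and RpS27 (4.18 ± 0.949), all relative signal with SD over n = 3. No test of the difference between lists was made.

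**Figure D1:**
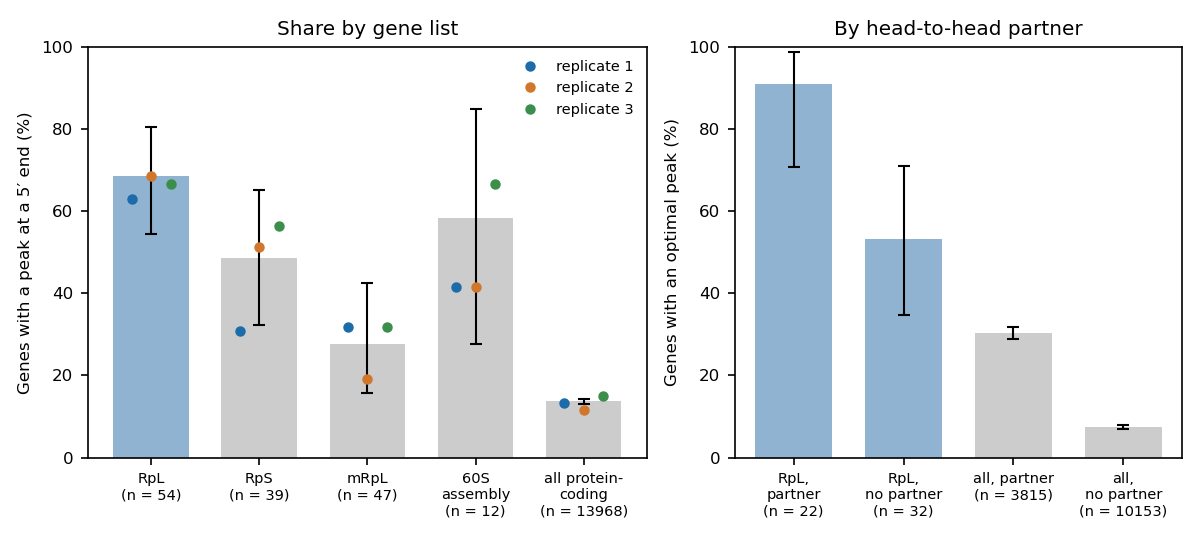
Share of genes with a Bdp1-GFP peak at a 5′ end, in percent. Bars are shares with an optimal peak and their error bars 95% exact Clopper-Pearson intervals; points in the left panel are the shares with one of the 3206 strongest relaxed peaks of each replicate. Large-subunit genes stand at 68.5% beside 13.7% of all protein-coding genes, and in the right panel members with a head-to-head neighbouring gene stand at 90.9% and those without at 53.1%.

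The signal at the members ranged from several times that of a typical optimal peak to no called peak. Over all 54 members, those without a peak included, the median relative signal was 0.845, 0.862 and 1.08 in the 3 replicates (0.930 ± 0.133, SD, n = 3). Over the 37 with an optimal peak it was 1.10, 1.45 and 1.49 (1.34 ± 0.212), and over all protein-coding genes with an optimal peak it was 0.995, 0.925 and 1.09 (1.00 ± 0.0837). The members' median was above that of protein-coding genes within each replicate. No member was among the 200 strongest optimal peaks, and 10 were among the 500 strongest. Of the 37, 10 had a mean relative signal of at least 2 and 10 were below 1. Replicate 1 gave the lowest of the 3 values at 25 of the 40 members with a peak in every replicate, replicate 2 at 10 and replicate 3 at 5. The order of the members was similar between replicates, with Spearman's rho of 0.792, 0.789 and 0.880 over these 40 genes for replicates 1 and 2, 1 and 3, and 2 and 3. This is a description over genes, which share the replicates' libraries and are not independent.

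**Figure D2:**
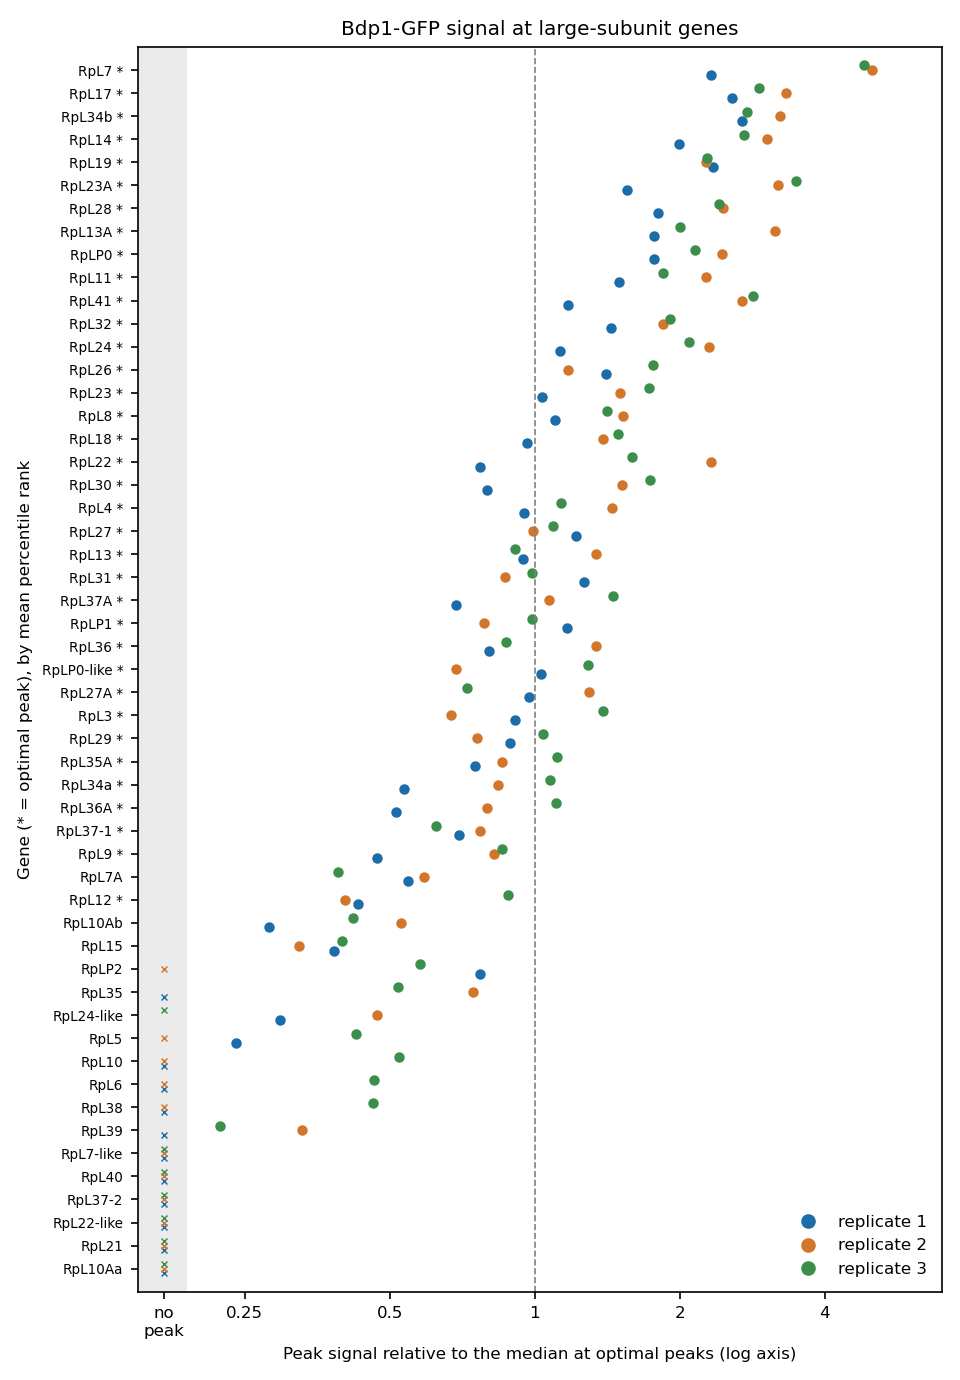
Relative Bdp1-GFP signal at 53 of the 54 large-subunit genes (log axis; 1 is the median at the optimal peaks of that replicate), ordered by mean percentile rank. Points are the 3 replicates, crosses in the grey band mark a replicate with no relaxed peak, and a star marks an optimal peak; the values run from RpL7, at 2.32 to 5.01, to 6 genes with no peak in any replicate.

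The strongest member was RpL7, which encodes an rRNA-binding protein. Its relative signal was 2.32, 5.01 and 4.82 in replicates 1 to 3 (4.05 ± 1.5), and its peak was number 225 of the 3206 by pooled signal. Replicates 2 and 3 lay close together and replicate 1 far below them. RpL23A, a protein beside the mouth of the exit tunnel, varied in the same manner with 1.55, 3.20 and 3.49 (2.75 ± 1.05, pooled rank 314). At the other extreme stood RpL40, which is made as a fusion with ubiquitin and had no relaxed peak in any replicate. The sequences around the start sites of these genes are shown because the TCT initiator word is found in all 3 of them, the gene with no called peak included. Each is 101 bases of the dm6 genome, from 80 bases upstream of an annotated 5′ end to 20 downstream of it, and capitals mark the TCT word (C or T, then CTTT, then a further pair of bases that are each C or T). The windows are chr2L:10201020-10201120, plus strand, for RpL7, chr3L:1668634-1668734, minus strand, for RpL23A and chr2L:4227619-4227719, plus strand, for RpL40.
RpL7: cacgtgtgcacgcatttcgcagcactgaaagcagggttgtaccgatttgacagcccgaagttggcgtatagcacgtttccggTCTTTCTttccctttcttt
RpL23A: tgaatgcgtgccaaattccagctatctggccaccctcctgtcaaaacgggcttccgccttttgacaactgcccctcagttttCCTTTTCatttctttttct
RpL40: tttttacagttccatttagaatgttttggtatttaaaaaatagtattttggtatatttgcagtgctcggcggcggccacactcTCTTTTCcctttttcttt
RpL7 has 2 annotated 5′ ends, and the window is that of the inner of them, while the peak summit lay at +14 bp from the outer (positive downstream). The summit of RpL23A lay at -108 bp from its 5′ end (negative upstream), outside the window.

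With the C of the word required within 10 bp of a 5′ end on the sense strand, the TCT word was present at 44 of 54 members (81.5%), at 74.4% of small-subunit genes, at 4.26% of mitochondrial large-subunit genes and at 2.46% of all protein-coding genes. Its C lay most often 4 bp downstream of the annotated 5′ end (11 members) and ranged from -2 to 9 bp. Members with and without an optimal peak held it at similar rates, 31 of 37 (83.8%) and 13 of 17 (76.5%). Of the 300 other protein-coding genes with the word, 72 had an optimal peak (24%), above the background of 13.7% and below the members' 68.5%. These 300 include 29 small-subunit genes, a list in which 48.7% of all genes had an optimal peak. The members without the word were RpL10Aa, RpL12, RpL15, RpL17, RpL22-like, RpL24-like, RpL26, RpL34a, RpL41 and RpLP0-like. Of these 10, 4 had no optimal peak. RpL17, RpL41 and RpL26 had mean relative signals of 2.93, 2.23 and 1.45, above the median of 1.34 over the members with an optimal peak, and RpLP0-like, RpL34a and RpL12 lay below it at 1.00, 0.817 and 0.572.

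A few words of other promoter elements were searched on both strands of the 100 bp to either side of a gene's outermost 5′ end, each word on its own, so that a base could count toward more than one. The DRE word TATCGATA, bound by the factor Dref, was present at 14 members (25.9%; 27.0% of those with and 23.5% of those without an optimal peak) and at 7.83% of all protein-coding genes. The core motif 1 word GGTCACAC was present at 7 members (13%) and at 6.74% of protein-coding genes. The TATA word TATAAA was present at 11 members (20.4%) and at 29.2% of protein-coding genes. The B box word of internal Pol III promoters (GGTTCGA, then any 2 bases, then CC) was present at no member and at 12 protein-coding genes (0.0859%). A match or its lack says only which letters stand in the window.

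Among the proteins that line the polypeptide exit tunnel or sit around its mouth, 6 of 8 genes had an optimal peak, near the share of 68.5% over all members. The groups by role were formed with the values known. RpL17, which reaches into the tunnel wall, gave 2.57, 3.31 and 2.91 (2.93 ± 0.372, pooled rank 302), a spread smaller than its distance from the typical peak. RpL19, a long helical protein at the rim, gave 2.34, 2.26 and 2.28 (2.29 ± 0.0428), the closest agreement of replicates among the 10 members of highest mean percentile rank. The tunnel protein RpL4 (1.18 ± 0.251) and the rim proteins RpL26 (1.45 ± 0.297) and RpL31 (1.04 ± 0.203) were nearer to the typical peak. RpL35 and RpL39, the others of this group, had no optimal peak. RpL35 had no relaxed peak in replicate 1 and relative signals of 0.743 and 0.521 in replicates 2 and 3, and RpL39 had none in replicate 1 and 0.329 and 0.222.

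RpL17 was the only member with a Pol III gene within 500 bp, and also the only one within 2000 bp. The gene tRNA:Phe-GAA-1-2 lies 305 bp upstream of it on the X chromosome (6744471 to 6744543, minus strand). The tRNA gene had an optimal peak of its own, at 6744485 to 6744607, with a relative signal of 1.43 ± 0.289 (n = 3, pooled rank 837). The peak at RpL17 covered 6744193 to 6744440, ended 44 bp before that of the tRNA gene, and had its summit 210 bp away from the other summit and at -92 bp from the nearest RpL17 5′ end. The signal at RpL17 was thus above that at the tRNA gene in mean, and the peaks were called apart. When the relaxed peak with the summit nearest to a 5′ end was taken in place of the strongest, RpL17 stood at 2.17.

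The stalk of the large subunit, which recruits translation factors, is built from RpLP0, RpLP1 and RpLP2 on a base that includes RpL12. Its genes ranged widely. RpLP0, the scaffold of the stalk, gave 1.77, 2.45 and 2.15 (2.12 ± 0.341, pooled rank 474). RpLP1 gave 1.17, 0.784 and 0.986 (0.979 ± 0.193), all at or near the typical peak. RpLP2, the partner of RpLP1 in the stalk, had no optimal peak and gave 0.770 in replicate 1, no relaxed peak in replicate 2 and 0.577 in replicate 3. RpL12 was at the edge of the optimal list, with a peak of pooled rank 3199 of 3206 and 0.431, 0.404 and 0.881 in the replicates (0.572 ± 0.268). Only in replicate 3 was it among the 3206 strongest peaks. RpLP2 thus exceeded RpL12 in replicate 1 although only RpL12 was in the optimal list.

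The proteins RpL5 and RpL11 bind 5S rRNA, a Pol III product, before it enters the subunit. RpL11 had an optimal peak and gave 1.49, 2.26 and 1.85 (1.87 ± 0.385, pooled rank 570). RpL5 had none, with 0.240 in replicate 1, no relaxed peak in replicate 2 and 0.425 in replicate 3. The values of the pair did not overlap. RpL5 lies in the stretches next to the centromeres described at the end, where 0 of 217 protein-coding genes had an optimal peak.

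Further members of the 10 highest are spread over the subunit. RpL14, a surface protein, gave 1.99, 3.03 and 2.72 (2.58 ± 0.531). RpL13A, known in mammals also for a role outside the ribosome in translational silencing, gave 1.77, 3.15 and 2.00 (2.30 ± 0.740). RpL28, which budding yeast lacks, gave 1.80, 2.46 and 2.41 (2.22 ± 0.365). In each of these genes every replicate was above the typical optimal peak. RpL34b, also of the 10, is described with its paralogue below.

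Outside the 10 members of highest mean percentile rank, a second tier had an optimal peak and mean relative signal of 1.00 to 2.23. It included RpL41, the shortest ribosomal protein (2.23 ± 0.92), and RpL32, often used in flies as a reference transcript under the name rp49 (1.73 ± 0.257). RpL41 stood below RpL28 and RpLP0 by mean percentile rank, although its mean relative signal was above theirs. Also in this tier were RpL23 (1.42 ± 0.351), RpL30, which in yeast regulates the splicing of its own transcript (1.35 ± 0.492), and RpL8, which lies at the catalytic centre (1.34 ± 0.218). RpL18 (1.28 ± 0.278), RpL27 (1.10 ± 0.113), RpL37A (1.07 ± 0.382), RpL13 (1.06 ± 0.237) and RpL36 (1.00 ± 0.292) were within about an SD of the typical peak. Below 1 stood RpL27A (0.995 ± 0.286), RpL3, which reaches the catalytic centre from the other side (0.989 ± 0.365), RpL35A (0.906 ± 0.184), RpL29 (0.895 ± 0.141), RpL36A (0.806 ± 0.295) and RpL9 (0.717 ± 0.214). Except for RpL9, each of these lay within its SD of 1.

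Of the 17 members without an optimal peak, 11 had a relaxed peak somewhere in the 3 replicates, with means of 0.275 to 0.673 over the replicates that had one. RpL10Ab, RpL15 and RpL7A had a relaxed peak in all 3, with RpL7A giving 0.546, 0.589 and 0.391 and RpL15 giving 0.383, 0.324 and 0.398. RpL10, which is added late in assembly, RpL38, whose loss in mice disturbs the body plan, and RpL6 had a relaxed peak in replicate 3 alone, at 0.523, 0.461 and 0.464. RpL24-like, RpL35, RpL39, RpL5 and RpLP2 had one in 2 of the 3. No relaxed peak in any replicate was found at RpL10Aa, RpL21, RpL22-like, RpL37-2, RpL40 and RpL7-like. Of the 17, RpLP2 in replicate 1 (rank 2440) and RpL35 in replicate 2 (rank 2484) reached the 3206 strongest peaks of a replicate.

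Paralogues, recognised by names that differ in a suffix, made up 7 pairs among the members. In 4 of them a single gene had an optimal peak, in 2 both had one and in 1 neither. Names such as RpL7 and RpL7A belong to different proteins and were not paired. Outside the pairs, 29 of 40 members had an optimal peak (72.5%).

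In the pairs with a peak at 1 gene, it was the gene without the suffix -like or with the suffix -1 that carried it. RpL22, which gave 0.771, 2.32 and 1.59 (1.56 ± 0.777), stood against RpL22-like with no relaxed peak. RpL37-1 gave 0.695, 0.768 and 0.625 (0.696 ± 0.0716) and RpL37-2 had no relaxed peak. RpL7, described above, stood against RpL7-like with none. RpL24, a protein at the contact between the subunits, gave 1.13, 2.30 and 2.09 (1.84 ± 0.627), and RpL24-like gave 0.296 and 0.469 in replicates 1 and 2 and none in replicate 3. In those 2 replicates RpL24 was higher by a log2 ratio of 1.93 and 2.29. RpL7-like, RpL24-like and RpLP0-like resemble assembly factors of yeast (Rlp7, Rlp24 and Mrt4) that occupy the place of the ribosomal protein in the immature subunit. Of these 3 only RpLP0-like had an optimal peak, and its summit was nearer to the neighbouring gene 14-3-3zeta.

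In the pairs with a peak at both genes 1 was the stronger in all 3 replicates. RpL34b gave 2.69, 3.22 and 2.76 (2.89 ± 0.289, pooled rank 299), and RpL34a gave 0.536, 0.839 and 1.08 (0.817 ± 0.272, pooled rank 1928). The log2 ratio of RpL34b over RpL34a averaged 1.88 ± 0.489 (n = 3), a 3.67-fold difference. RpLP0 exceeded RpLP0-like, which gave 1.03, 0.685 and 1.29 (1.00 ± 0.303), by log2 ratios of 0.77, 1.84 and 0.74 (1.12 ± 0.624, n = 3), a 2.17-fold difference. In both pairs the replicate values of the 2 genes did not overlap. The optimal peak of the weaker gene had its summit nearer to a head-to-head neighbour in both pairs. At RpL34a the summit lay at -29 bp from Trmt61, and at RpLP0-like at -6 bp from 14-3-3zeta. These shared peaks cannot be assigned to the paralogue, so the ratios may not compare the paralogues' own signals. With 3 replicates, an exact two-sided test of paired values cannot give a p below 0.25, so none was made. RpL10Ab gave 0.281, 0.527 and 0.419 and RpL10Aa had no relaxed peak, and neither had an optimal peak.

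**Figure D3:**
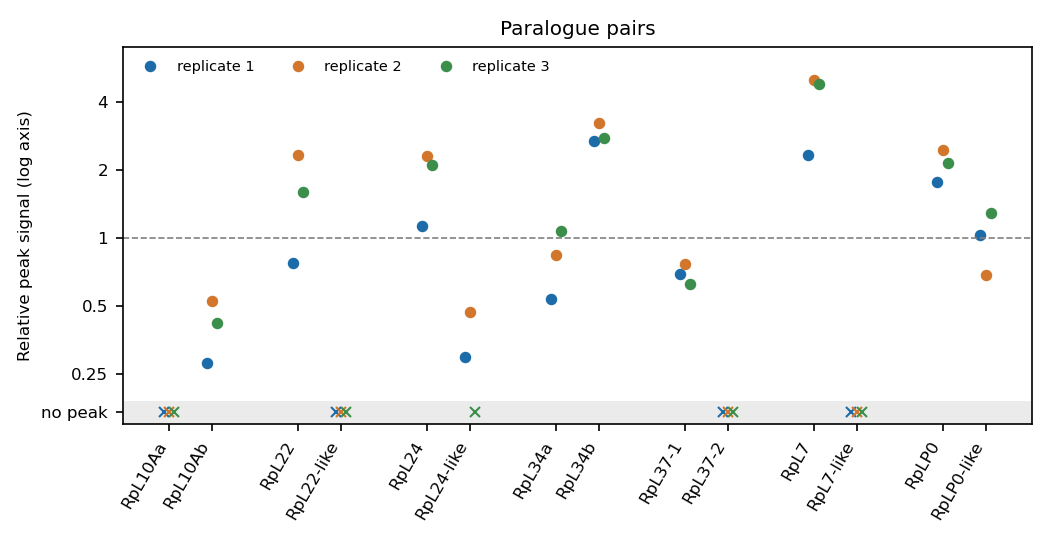
Relative Bdp1-GFP signal (log axis; 1 is the median at the optimal peaks of that replicate) at both genes of the 7 paralogue pairs. Points are the 3 replicates and crosses in the grey band mark a replicate with no relaxed peak; RpL34b stands at 2.69 to 3.22 and RpL34a at 0.536 to 1.08.

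In 5 of the 7 pairs the gene of higher mean percentile rank has the TCT word and the other has not, and in 2 both have it. The promoters of 3 of the 5 are shown as examples. They are given as above, with the TCT word in capitals, and with the DRE word in capitals where a window has no TCT word. The windows are chr3R:9401206-9401306, minus strand, for RpL34b, chr3R:26059247-26059347, minus strand, for RpL34a, chr2L:13395072-13395172, minus strand, for RpL24, chr3R:11431562-11431662, minus strand, for RpL24-like, chr3L:11822771-11822871, plus strand, for RpL10Ab and chr3R:15037286-15037386, plus strand, for RpL10Aa.
RpL34b: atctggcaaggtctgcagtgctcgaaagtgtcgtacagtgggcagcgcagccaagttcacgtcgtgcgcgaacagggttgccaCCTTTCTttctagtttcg
RpL34a: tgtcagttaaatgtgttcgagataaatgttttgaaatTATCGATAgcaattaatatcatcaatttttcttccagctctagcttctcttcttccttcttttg
RpL24: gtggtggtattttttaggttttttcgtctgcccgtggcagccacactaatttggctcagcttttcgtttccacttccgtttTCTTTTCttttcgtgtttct
RpL24-like: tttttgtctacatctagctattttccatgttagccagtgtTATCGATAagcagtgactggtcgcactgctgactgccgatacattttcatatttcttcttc
RpL10Ab: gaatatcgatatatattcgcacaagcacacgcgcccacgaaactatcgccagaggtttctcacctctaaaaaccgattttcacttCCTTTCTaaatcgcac
RpL10Aa: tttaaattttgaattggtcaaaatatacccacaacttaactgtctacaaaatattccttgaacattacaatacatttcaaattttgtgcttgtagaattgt
The summit lay at -65 bp from the nearest 5′ end at RpL34b, at -5 bp at RpL24 and at -200 bp at RpL34a, where negative is upstream. RpL24 has 2 annotated 5′ ends. Its window is that of the inner of them, while its summit position is given from the outer, so the summit lay further upstream of the TCT word shown. RpL34a and RpL24-like hold the DRE word, RpL10Ab holds it beside the TCT word (in lower case above), and RpL10Aa holds neither. The other pairs divided in this way are RpL22 with RpL22-like and RpLP0 with RpLP0-like, and the pairs with the TCT word at both genes are RpL37-1 with RpL37-2 and RpL7 with RpL7-like.

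Peak summits at the members lay close to the start sites. The median position of the optimal summit from the nearest 5′ end was -43 bp, with negative values upstream (from -200 bp, at RpL34a, to 32 bp, at RpL3 and RpL12), against -105 bp over the 1913 protein-coding genes with an optimal peak. Of the members 25 of 37 (67.6%) had the summit within 50 bp of a 5′ end, against 22% of the protein-coding genes. Both sets include genes counted through a peak whose summit was nearer to another gene. A peak with its summit nearest to the own 5′ end was found at 33 of the 37 members and 1414 of the 1913 protein-coding genes. The summit was upstream at 31 members and downstream at 6 (83.8% upstream), against 88.9% upstream among the protein-coding genes. In the relaxed lists the members' median was -49, -36 and -42 bp in the 3 replicates (-42.3 ± 6.51), and that of all protein-coding genes was -93, -37 and -63 bp (-64.3 ± 28.0). The medians therefore differed little in replicate 2. The share within 100 bp separated them in each replicate, with 72.1, 90.7 and 83.0% of members (81.9% ± 9.35) against 43.1% ± 5.80 of protein-coding genes.

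**Figure D4:**
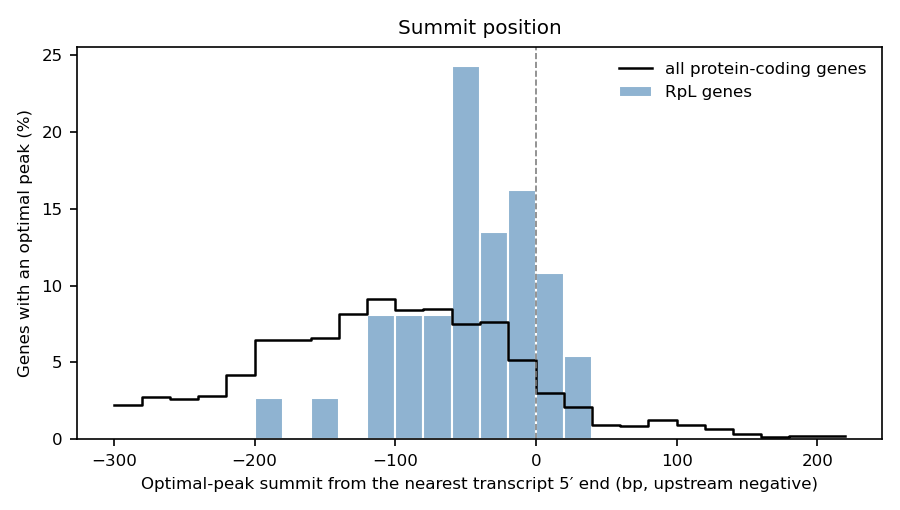
Position of the optimal-peak summit relative to the nearest transcript 5′ end (bp, upstream negative), as percent of genes with an optimal peak, in bins of 20 bp. Filled bars are the 37 large-subunit genes and the line all 1913 protein-coding genes; the members' median is -43 bp and that of the protein-coding genes -105 bp.

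Many members share their promoter region with a gene on the other strand. A head-to-head partner, meaning a protein-coding gene on the opposite strand whose 5′ end lies within 500 bp upstream, was found at 22 members. Of these 20 had an optimal peak (90.9%, interval 70.8 to 98.9%), against 17 of the 32 without a partner (53.1%, interval 34.7 to 70.9%). Among all protein-coding genes the shares were 30.3% with and 7.45% without a partner, so the share of members was above that of protein-coding genes in either class. The exceptions among members with a partner were RpL24-like and RpL7-like, whose partners CG5276 and JhI-21 had no optimal peak either.

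In 13 of the 23 pairs a member and its partner were counted through the same peak. The summit was nearest to the member in 17 pairs and nearest to the partner in 4. Those 4 were RpL13 with Dref, the factor that binds the DRE (84 bp between the 5′ ends), RpL29 with Sgf29, a subunit of the SAGA coactivator (122 bp), RpL34a with Trmt61, a tRNA methyltransferase subunit (229 bp), and RpLP0-like with 14-3-3zeta, an adaptor protein (87 bp). Where a peak is shared it cannot be assigned to either start site. The closest partner was Ripalpha at RpL7, with 30 bp between the 5′ ends and the summit at +14 bp from that of RpL7. The 17 members with a peak and no partner had a median summit at -33 bp, and 76.5% of them lay within 50 bp, against 25% of the 756 such protein-coding genes.

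Of 16 members with a snoRNA gene inside, transcribed on the same strand, 12 had an optimal peak (75%), with a median mean relative signal of 1.72 over the 12. Of the 38 others 25 had one (65.8%), with a median of 1.10, and their intervals overlapped (47.6 to 92.7% and 48.6 to 80.4%). The corresponding protein-coding shares were 40.9 and 13.5%. Among members with at least 2 distinct 5′ ends, which also have a longer stretch searched, 19 of 25 had a peak (76%), against 18 of 29 with a single one (62.1%), and 22.4 against 10.6% of protein-coding genes. By chromosome arm the count was 9 of 13 on 2L, 9 of 14 on 2R, 7 of 10 on 3L, 8 of 11 on 3R and 4 of 6 on X, and the share of protein-coding genes was 13.5, 13.2, 14.3, 15.7 and 11.1% on these arms.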

How the data were processed

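Peak lists on build dm6 were used as the authors deposited them: 3 relaxed replicate lists, a pooled relaxed list and the optimal list thresholded by irreproducible discovery rate (IDR), made from all 3 replicates. The relaxed lists were called with a control alignment, per the text deposited by the authors. The peak caller, the aligner and the threshold on the IDR were not stated in the labels or that text. Per the labels, chromatin was sonicated to 200 to 800 bp, and the replicates are biological. The deposited peak signal (a signal value per peak) has no stated scale between lists, so it was divided by the replicate's median at the optimal peaks. These medians were 43.5, 56.3 and 50.0. Almost all relaxed peaks of a list have 1 width (430, 404 and 380 bp in replicates 1 to 3), which sets how far a peak can lie from a 5′ end and still overlap. The summit was read from the deposited offset (another value, in bp). Lists on the dm3 build were not used here. No per-sample column was left unmapped (0).

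Genes came from Ensembl release 115 (BDGP 6.54) on 7 chromosomes, and sequence from the matching NCBI RefSeq assembly; coordinates are 1-based. Computations used Python 3.11.15, numpy 2.4.6, scipy 1.17.1 and matplotlib 3.10.9. The peak assignment was run on simulated peaks placed close to the 5′ ends of genes with a single 5′ end. That checks the computation only, and not shared peaks, genes with several 5′ ends or distant summits. Intervals are 95% exact Clopper-Pearson. Members, lists and alternatives were chosen with earlier results of these data known, and the role groups within the subunit after members' values were seen, so no set was tested and no p-value is given. Every member but 1, which is counted but not reported here by name, was named, with values per replicate for the 10 of highest mean percentile rank, all paralogues and the RpLP genes; of companion lists, at most the 3 strongest. Values per replicate of further members were added after they were seen.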

Additional observations from a re-analysis of the deposited data

How the results depend on the processing

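Under the alternatives run, from 30 to 37 of 54 members had an optimal peak. These shares lay within the interval given above, but that interval covers counting error over genes only and does not measure stability to processing. With the 1603 strongest optimal peaks, 30 members kept a peak and 6.80% of protein-coding genes had one; the members lost were RpL12, RpL3, RpL34a, RpL36A, RpL37-1, RpL9 and RpLP1. With peaks found in at least 2 replicates, RpL12 was lost and the background was 11.9%. Leaving out each replicate in turn left 32 to 35 members and a background of 7.95 to 9.83%. A summit within 100 bp gave 32 members and 6.54%, within 250 bp 37 and 13.1%. Windows of 500 bp gave 37 and 17.1%, the outermost 5′ end alone 36 (without RpLP0) and 12.1%, and an overlap of 50 bp 37 and 12.6%. Counting only peaks with the summit nearest to the gene's own 5′ end, an alternative added after seeing the data, gave 33 members (without RpL13, RpL29, RpL34a and RpLP0-like) and 10.1%. With the 1603 strongest peaks of each replicate the mean share of members was 46.9%, and with all relaxed peaks 82.1%. As percentile rank within a replicate, a change of scale, the median over all members was 93.9, RpL34b exceeded RpL34a by 7.45 and RpLP0 exceeded RpLP0-like by 4.27 percentile points. Without Pol III peaks 37 members had a peak, beside a background of 13.6%. Of 50 recomputed values for the 10 highest members 49 moved by less than 1 SD, and the exception was RpL17 with the peak nearest by summit, at 2.17. Most of the 50 are means without 1 replicate, which cannot move by 1 SD when 3 values are averaged. The count is therefore no measure of stability. The number of pairs with a peak at a single gene ranged from 3 to 5 where it was recomputed. It was not recomputed for the summit nearest to the own 5′ end. There RpL34a and RpLP0-like lost their peaks while RpL34b and RpLP0 kept theirs, so the number would lie above this range. Nor was it recomputed for the outermost 5′ end alone, a summit within 100 bp or an overlap of 50 bp. No direction was reversed among the recomputed values. The signal ratio of RpLP0 over RpLP0-like was not recomputed for the outermost 5′ end alone, where RpLP0 lost its optimal peak and RpLP0-like kept one. No paired analysis was possible because there is no second group of samples to pair with; the ratios between paralogues compare genes within a replicate. Unknown depth limits what the lack of a peak can show: it means that none was called, not that Bdp1 was absent.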

Other observations

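The large-subunit genes nearest to the centromeres had no optimal peak. Stretches next to the centromeres were drawn after the values were seen, as 2L above 22 Mb, 3L above 23 Mb, 2R below 6 Mb, 3R below 4 Mb and X above 22 Mb, so the counts are a description. They hold 5 members, namely RpL5, RpL10, RpL15, RpL21 and RpL38, and 0 of the 5 had an optimal peak (exact 95% upper limit 52.2%), against 37 of the 49 members elsewhere (75.5%). The same held for the 217 protein-coding genes of these stretches, of which 0 had an optimal peak (upper limit 1.69%), against 13.9% elsewhere. Of the 3206 optimal peaks 1 lay there. The relaxed lists did hold peaks there, 577, 231 and 384 of the 30000 in replicates 1, 2 and 3, and 4 of the 5 members and 69 of the 217 genes (31.8%) had a relaxed peak in some replicate, against 57.0% of genes elsewhere. No cause of the difference was tested.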
